A study of Macaca nemestrina with 58 samples.

Results

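A set of 9 genes by which macrophages and dendritic cells are recognised was followed in vaginal biopsies of pig-tailed macaques: C1QA, C1QB, TYROBP, APOE, CLEC7A, CLEC10A, CD14, CD163 and CD68. A probe set, the group of probes on an array that together read 1 transcript, was taken when its only gene symbol in the array annotation was one of these. This gave 14 probe sets of 8 genes, out of 14132 genes named on the array. No probe set carried CD163 alone, and that gene was not analysed here. All 14 passed the filter on dim probe sets, a mean log2 value of at least 5.53. The genes C1QA and CD68 had 2 probe sets each, APOE and CLEC7A had 3 each, and the other 4 genes had 1 each. Probe sets of 1 gene are not independent readings, and levels are compared only within a probe set.

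Macrophages and dendritic cells take up particles and dying cells, sense microbes and present antigen to T cells. In the vaginal wall they sit mostly in the connective tissue under the squamous epithelium, with Langerhans cells, a related antigen-presenting cell, inside the epithelium. C1QA and C1QB encode chains of C1q, the first component of the classical complement pathway, which tissue macrophages make. TYROBP is the signalling adaptor of several activating receptors on myeloid and natural killer cells, and APOE is a lipid carrier that macrophages secrete, among other cells. CLEC7A (dectin-1) binds fungal beta-glucan, CLEC10A is a galactose-binding lectin that marks a subset of dendritic cells, CD14 is a co-receptor for bacterial lipopolysaccharide and CD68 is a glycoprotein of lysosomes.

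The series held 58 Affymetrix rhesus macaque arrays from 15 animals, read with a related species' probes. DMPA, depot medroxyprogesterone acetate, is an injected progestin, and it was given to 9 animals at labelled doses of 0.5, 1.5 or 2.5 (no unit in the labels), 3 animals each at the later time. The other 6 animals belong to the arm labelled LNG, a combined oral contraceptive of a progestin and an estrogen, with 3 animals labelled High and 3 labelled Low. Baseline biopsies, before any drug, fell into early follicular (10 samples), late follicular (5), early luteal (4) and late luteal (9) phases of the cycle. Treated biopsies were labelled 1D4 (8 animals) and 2D2 (9 animals) in the DMPA arm and 5th and 7th (6 animals each) in the LNG arm. The series text places the treated biopsies 2 weeks after the second DMPA injection and 5 weeks after the first oral dose, without tying those intervals to the labels. The labels give no ages and no meaning for the mark (A-) on 5 of the 12 treated LNG arrays. Every animal had been treated by the later times, so the effects of drug, of elapsed time and of repeated biopsy cannot be told apart. Samples of 1 group came from separate animals, apart from 1 labelled duplicate array that was averaged with its partner, leaving 57 samples.

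The values are the authors' log2 values, so a difference of 1 is a 2-fold change. Array medians lay between 6.07 and 6.25, and precision is set by how many arrays each group has. Each treated time was set against the same animals' own baseline biopsies, with the phases of the cycle pooled. The test was limma, a linear model fitted to all 31624 probe sets over the filter with the animal as a block. A probe set was called changed when its p-value, adjusted by the Benjamini-Hochberg method over all of these, was under 0.05. In bulk tissue, fewer cells of a type and less RNA per cell cannot be told apart. Squamous epithelium genes were bright at baseline, as the tissue label implies, with a mean log2 value over 16 genes whose median was 12.68 in the DMPA animals.

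After DMPA the member genes did not move as 1 group. TYROBP was higher at both times, all 3 CLEC7A probe sets and CLEC10A were lower at both times, and the second CD68 probe set was higher at 1D4. C1QA, C1QB, APOE and CD14 did not pass the test at either time. At 1D4 6 of the 14 probe sets passed, 2 higher and 4 lower, where 23.2% of all probe sets passed (11.3% higher and 11.9% lower). At 2D2 5 of the 14 passed, 1 higher and 4 lower, where 28.1% of all passed (16% higher and 12.1% lower). CLEC7A alone gives 3 of the 4 lower calls at each time.

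**Figure D1:**
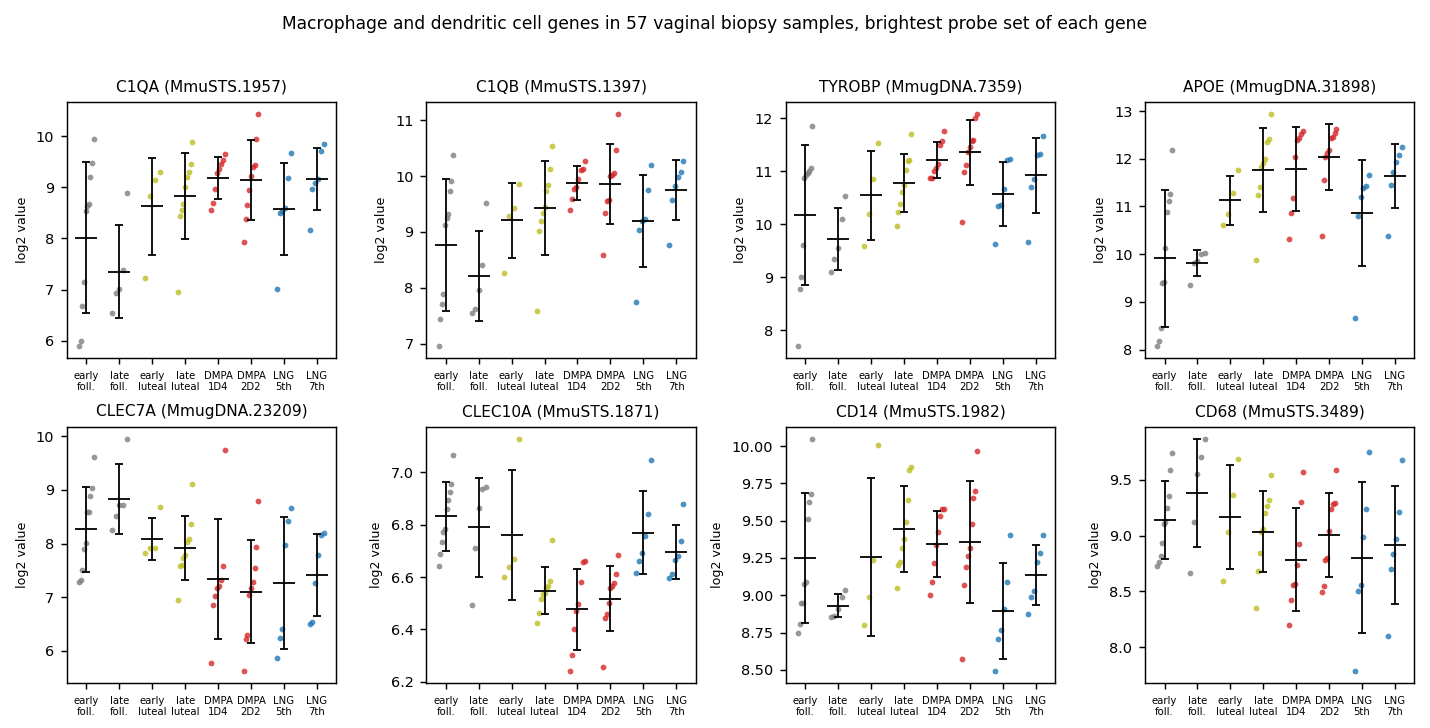
Log2 value (y axis) of the brightest probe set of each of the 8 genes in the 4 baseline phases and the treated times (x axis). Each point is 1 of 57 samples, and the bar with whiskers is the group mean ± SD. TYROBP reaches 12.08 at DMPA 2D2, CLEC7A goes down to 5.62 there, and every treated group overlaps the baseline values.

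The C1q chains had wide baselines. C1QB (MmuSTS.1397.1.S1_at) ranged from 6.95 through a median of 9.34 to 10.54 in the 17 baseline biopsies of the DMPA animals. It ranged from 9.39 through 9.88 to 10.27 at 1D4 and from 8.59 through 10.01 to 11.11 at 2D2. The treated values thus sat in the upper part of the baseline range, and the groups overlapped. The change was 0.84 ± 0.32 (SE) at 1D4, higher in 7 of 8 animals, and missed the threshold with an adjusted p of 0.0503 by limma. At 2D2 it was 0.72 ± 0.30 with an adjusted p of 0.0673, higher in 6 of 9 animals. With no animal block C1QB passed at both times, with adjusted p of 0.037 and 0.0242, and without PPi2 it passed with 0.0204 and 0.0426. C1QA, by the probe set MmuSTS.1957.1.S1_at, had values from 5.998 through 8.67 to 9.95 at baseline, from 8.56 through 9.32 to 9.65 at 1D4 and from 7.93 through 9.21 to 10.43 at 2D2. Its changes of 0.81 ± 0.37 and 0.67 ± 0.35 (SE) did not pass either, with adjusted p of 0.101 and 0.15 by limma. No treated C1QA or C1QB value was as low as the lowest baseline value.

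TYROBP (MmugDNA.7359.1.S1_s_at) ranged from 7.69 through a median of 10.87 to 11.86 in the DMPA animals' baseline biopsies. At 1D4 the range was 10.87 through 11.10 to 11.75, and at 2D2 it was 10.05 through 11.46 to 12.08. All 8 values at 1D4 lay at or above the baseline median yet within the baseline range, and 2 of 9 values at 2D2 lay above the highest baseline value. TYROBP rose by 0.87 ± 0.30 (SE) at 1D4, 1.83-fold, with an adjusted p of 0.0361 by limma, and was higher in 6 of 8 animals. At 2D2 it rose by 0.91 ± 0.29, 1.88-fold, with an adjusted p of 0.0179 by limma, and was higher in 9 of 9 animals. The animals differed widely at 2D2, from 0.03 in BB108, 0.11 in PPi2 and 0.12 in BB770 to 2.41 in BB0499 and 2.48 in BB981. Leaving out BB981 lowered the 2D2 change to 0.71 with an adjusted p of 0.0755, and leaving out BB0499 gave 0.72 and 0.0748, so each of these animals ended the call. At 1D4 the call ended without BB0499, BB0540, BB521, BB981 or PHQ1, with adjusted p from 0.06 to 0.121 by limma. The 5 measured natural killer cell genes, of which none passed at either time, had a mean log2 value that changed by -0.03 ± 0.48 (SD, n = 8) at 1D4 and 0.01 ± 0.65 (n = 9) at 2D2. Their part in the TYROBP result was not tested.

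APOE, by its probe set MmugDNA.31898.1.S1_s_at, had baseline values in the DMPA animals from 8.45 through 11.24 to 12.94. Values ran from 10.33 through 12.21 to 12.59 at 1D4 and from 10.39 through 12.19 to 12.62 at 2D2, inside the baseline range. The change was 0.93 ± 0.46 (SE) at 1D4 and 1.04 ± 0.43 at 2D2, higher in 8 of 9 animals at 2D2, and the adjusted p of 0.128 and 0.0662 by limma did not pass. The other 2 APOE probe sets gave changes of 0.51 to 0.58 that did not pass at either time.

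All 3 CLEC7A probe sets were lower at both DMPA times. By its brightest probe set, MmugDNA.23209.1.S1_at, values ran from 6.95 through a median of 8.004 to 9.95 at the DMPA animals' baseline. They ran from 5.77 through 7.20 to 9.75 at 1D4 and from 5.62 through 7.16 to 8.79 at 2D2. The groups overlapped, with 2 of 8 values at 1D4 and 3 of 9 at 2D2 under the lowest baseline value. CLEC7A fell by 0.84 ± 0.31 (SE) at 1D4, 1.79-fold, with an adjusted p of 0.0433 by limma, and was lower in 7 of 8 animals. At 2D2 it fell by 1.05 ± 0.29, 2.08-fold, with an adjusted p of 0.00728 by limma, and was lower in 9 of 9 animals. The changes at 2D2 ranged from -2.37 in BB981 and -1.86 in PPi2 to -0.43 in BB0540 and -0.37 in BB0499.

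The other CLEC7A probe sets moved the same way. MmugDNA.3760.1.S1_at fell by 0.96 ± 0.27 (SE) and 0.88 ± 0.25 at the 1D4 and 2D2 times, and MmugDNA.40302.1.S1_s_at by 1.05 ± 0.30 and 0.96 ± 0.28. Of the first of these, 6 of 8 values at 1D4 lay under the lowest baseline value. MmugDNA.40302.1.S1_s_at was dim, under the filter value of 5.53 in 11 of 57 samples. Every CLEC7A call at 2D2 stood when any 1 animal was left out. At 1D4 the brightest probe set lost its call without BB0499, BB0540, BB405, BB521, BB981 or PHQ1, with adjusted p of 0.16 without BB981 and 0.141 without PHQ1 by limma. The other 2 lost theirs only without PHQ1, with adjusted p of 0.0657 and 0.0669. BB770 was high in all 4 of its biopsies, with CLEC7A at 9.10 and 9.95 before treatment, 9.75 at 1D4 and 8.79 at 2D2. That animal's mean over the squamous genes also stayed high in treatment, at 12.61 and 11.52. In PPi2 the mean over the squamous genes was 8.10 in the late luteal and 12.82 in the early follicular biopsy before treatment. It was 12.09 at 1D4 and 11.55 at 2D2. The CLEC7A value of PPi2 was 7.58 at 1D4 and 6.23 at 2D2, after 7.60 and 8.58 before treatment.

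CLEC10A (MmuSTS.1871.1.S1_at) was lower by a small margin at both times. Values ran from 6.43 through 6.67 to 7.13 at the DMPA animals' baseline, from 6.24 through 6.49 to 6.66 at 1D4 and from 6.26 through 6.56 to 6.68 at 2D2. The highest treated value stood close to the baseline median, and 3 of 8 and 1 of 9 values were under the lowest baseline value. CLEC10A fell by 0.24 ± 0.07 (SE), 1.18-fold, at 1D4 with an adjusted p of 0.0146 by limma, and by 0.20 ± 0.07, 1.15-fold, at 2D2 with an adjusted p of 0.0232. It was lower in 6 of 8 animals at 1D4 and in 7 of 9 at 2D2. Over both arms, the baseline means were 6.83 in early follicular, 6.79 in late follicular, 6.76 in early luteal and 6.55 in late luteal samples. The DMPA means of 6.48 at 1D4 and 6.52 at 2D2 thus lay near the untreated late luteal mean. The labelled duplicate array and its partner differed by 0.20 for CLEC10A, close to the size of the changes from the pooled baseline. The 1D4 call ended without BB405, with an adjusted p of 0.05, and the 2D2 call without BB0540, BB405, BB981 or PHQ1, with adjusted p from 0.0517 to 0.0719.

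CD14 (MmuSTS.1982.1.S1_at) stayed near its baseline. Its values ran from 8.75 through 9.22 to 10.05 before DMPA, from 9.0 through 9.38 to 9.58 at 1D4 and from 8.58 through 9.32 to 9.97 at 2D2. The change was 0.06 ± 0.15 (SE) at 1D4 and 0.03 ± 0.14 at 2D2, and neither passed.

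The 2 CD68 probe sets gave opposite directions at 1D4. MmuSTS.3489.1.S1_at, with values from 8.67 through 9.12 to 9.87 at baseline and from 8.20 through 8.65 to 9.57 at 1D4, changed by -0.34 ± 0.20 (SE) and did not pass. MmugDNA.11447.1.S1_at, with values from 3.40 through 5.73 to 6.60 at baseline and from 5.23 through 6.07 to 7.78 at 1D4, rose by 1.11 ± 0.38 with an adjusted p of 0.0326 by limma. It was higher in 5 of 8 animals, with 3 of 8 values above the highest baseline value. This probe set was under the filter value in 24 of 57 samples. Its call ended without BB0499, BB981 or PHQ1, with adjusted p of 0.168, 0.0797 and 0.123. At 2D2 neither CD68 probe set passed, with changes of -0.15 ± 0.19 and 0.43 ± 0.36.

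**Figure D2:**
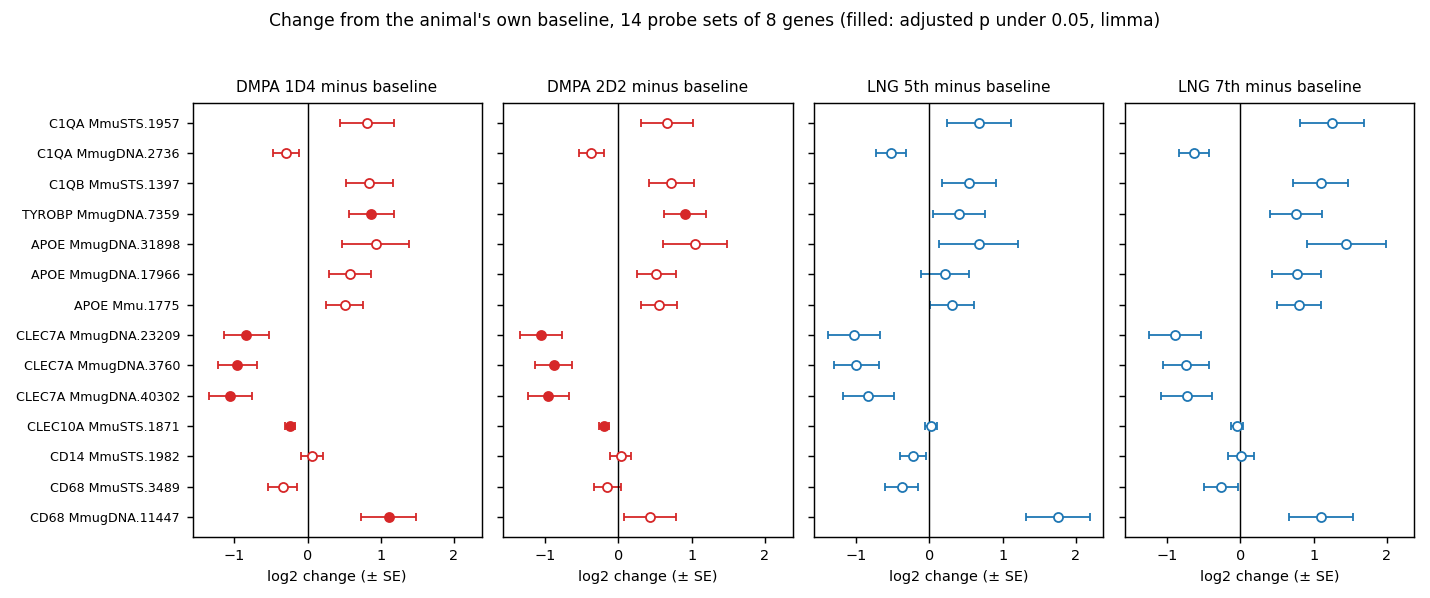
Change from the animals' own baseline (x axis, log2, with SE) for each of the 14 probe sets (y axis) at the DMPA times (red) and the LNG times (blue). Filled points passed the test at an adjusted p under 0.05: 6 at DMPA 1D4, 5 at DMPA 2D2 and 0 at each LNG time.

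Large shifts in other cells' genes went along with these changes. Of the 16 squamous epithelium genes, 14 fell at 1D4 and 15 at 2D2, with median changes of -3.60 and -4.43 on the log2 scale. The squamous mean went from a median of 12.68 at baseline to 7.73 at 1D4 and 6.88 at 2D2. Of the 9 columnar epithelium genes, 4 rose at 1D4 and 6 at 2D2, and their mean was higher in 8 of 8 and 9 of 9 animals. The stromal mean, taken over fibroblast and smooth muscle genes, changed by 1.29 ± 1.37 (SD, n = 8) at 1D4 and 0.07 ± 1.77 (n = 9) at 2D2. Of the 6 genes common to all leukocytes, 0 rose at 1D4 and 1 at 2D2, with a mean that was higher in 6 of 8 and 9 of 9 animals. Of the 5 listed Langerhans cell genes, 2 were bright enough to measure, EPCAM and FCGBP, both of which columnar epithelium also makes, and both rose at each time. The difference between the 3' and 5' GAPDH control probe sets, which grows when RNA is degraded or copied incompletely, changed by 0.31 ± 0.43 (SD, n = 8) and 0.74 ± 0.57 (n = 9).

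With the squamous mean as a covariate in the limma fit, 0 of the 14 probe sets passed at either DMPA time, and 0 of all 31624 did. TYROBP then changed by 0.26 at 1D4 and 0.15 at 2D2, and CLEC10A by -0.20 and -0.14. The CLEC7A probe sets changed by -0.07 (MmugDNA.23209.1.S1_at), -0.36 (MmugDNA.3760.1.S1_at) and -0.30 (MmugDNA.40302.1.S1_s_at) at 1D4, and by -0.10, -0.14 and -0.02 at 2D2. With the GAPDH difference as a covariate 0 of 14 passed at either time, and 1631 and 0 of all. TYROBP then changed by 0.62 and 0.26. The CLEC7A probe sets, in the same order, changed by -0.58, -0.78 and -0.81 at 1D4 and by -0.41, -0.42 and -0.34 at 2D2. With the stromal mean as a covariate 0 of 14 passed at 1D4, where 133 of all did, and 7 at 2D2, where 9718 of all did. At 1D4 TYROBP then changed by 0.46 and CD68 (MmugDNA.11447.1.S1_at) by 0.43, the CLEC7A probe sets, in that order, by -0.72, -0.89 and -1.02, and CLEC10A by -0.20. The treatment moves together with the squamous mean and the GAPDH difference at both times, and with the stromal mean at 1D4. Their shares in the result cannot be told apart there. At 2D2 the stromal mean changed little on average, with a wide spread between animals, and its share in the result was not tested further.

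**Figure D3:**
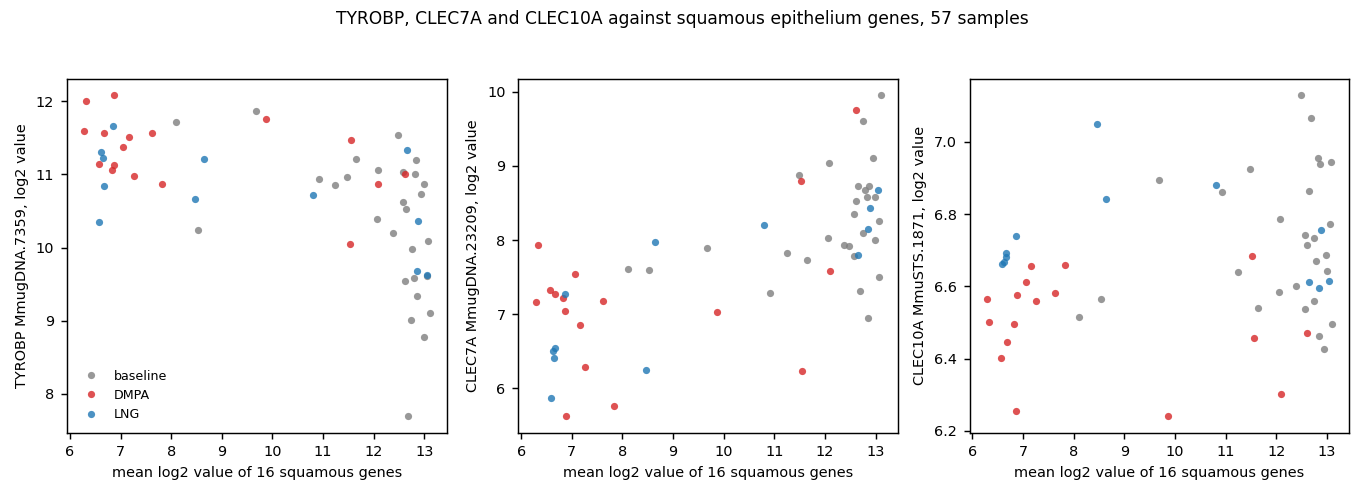
Log2 value of TYROBP, CLEC7A and CLEC10A (y axes) against the mean log2 value of 16 squamous epithelium genes (x axes) in 57 samples, grey for baseline, red for DMPA and blue for LNG. Most baseline samples lie to the right near 12.68 and most DMPA samples to the left near 7, where TYROBP is mostly high and CLEC7A mostly low.

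Other genes of the same cells were taken from a list of 93, of which 71 had a probe set and 60 were over the filter. At 1D4 9 rose and 2 fell of the 60, where 23.2% of all probe sets passed (11.3% higher and 11.9% lower), with a median change of 0.35 beside 0.03 over all probe sets. At 2D2 10 rose and 2 fell of the 60, where 28.1% of all passed (16% higher and 12.1% lower), with a median of 0.28 beside 0.04. At neither time was the list's share of calls above that of all probe sets. Of 13 antigen presentation genes 3 rose at each time, of 7 complement genes 1 rose at each time, and of 5 other lectin genes 0 passed at either time, by limma. At 1D4 the class II chaperone CD74 rose by 0.74 ± 0.24 (SE), the class II chain MAMU-DPA by 0.75 ± 0.26, the macrophage protein AIF1 by 1.07 ± 0.37 and the inhibitory receptor SIRPA by 0.42 ± 0.12. The scavenger receptor CD36 fell by 2.61 ± 0.67 and 2.21 ± 0.64 at the 1D4 and 2D2 times, and lysozyme (LYZ) by 0.95 ± 0.24 and 0.86 ± 0.23. At 2D2 the lysosomal lipase LIPA rose by 0.63 ± 0.16, the lysosomal protease CTSS by 0.86 ± 0.27, the receptor TLR1 by 0.80 ± 0.24 and the lipase LPL by 0.34 ± 0.09. The largest adjusted p among these named genes was 0.0335, by limma.

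In the LNG arm 0 of the 14 probe sets passed at either time. By limma, 0% of all probe sets passed at the 5th time and 0.00632% at the 7th. At an unadjusted p under 0.05, 5 members and 6828 of all probe sets passed at the 5th time, and 11 members and 7487 of all at the 7th. C1QB had values of 7.75, 9.04, 9.20, 9.23, 9.76 and 10.19 at the 5th time and 8.77, 9.57, 9.81, 9.99, 10.08 and 10.27 at the 7th, against 7.44 through 9.02 to 9.85 at baseline. Its change was 1.10 ± 0.37 (SE) at the 7th time, higher in 6 of 6 animals, with an adjusted p of 0.0898 by limma. C1QA (MmuSTS.1957.1.S1_at) changed by 1.25 ± 0.43 at the 7th time, also higher in 6 of 6 animals, with an adjusted p of 0.0943 by limma. The groups overlapped in both genes.

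TYROBP in the LNG animals ranged from 9.01 through 10.20 to 11.03 at baseline, from 9.62 through 10.51 to 11.22 at the 5th time and from 9.67 through 11.08 to 11.66 at the 7th. The change at the 7th time was 0.76 ± 0.36 (SE), higher in 5 of 6 animals, and did not pass. APOE (MmugDNA.31898.1.S1_s_at) changed by 1.45 ± 0.53 at the 7th time, higher in 5 of 6 animals, and did not pass. CLEC7A (MmugDNA.23209.1.S1_at) went from 7.50 through 8.26 to 9.61 at baseline to 6.50 through 7.53 to 8.20 at the 7th time, lower in 6 of 6 animals, with a change of -0.89 ± 0.36 and an adjusted p of 0.129 by limma. CLEC10A stood at 6.56 through 6.74 to 6.94 at baseline, 6.62 through 6.72 to 7.05 at the 5th time and 6.60 through 6.67 to 6.88 at the 7th. The lowest adjusted p of the members at the 5th time was 0.0544, for CD68 (MmugDNA.11447.1.S1_at), whose change was 1.75 ± 0.44, higher in 6 of 6 animals. At the 7th time it was 0.0836, for the second C1QA probe set, MmugDNA.2736.1.S1_at, whose change was -0.63 ± 0.21, lower in 6 of 6 animals. The squamous mean in the LNG arm spread from 6.58 to 13.04 at the 5th time and from 6.62 to 12.85 at the 7th. With it as a covariate in the limma fit, no member passed at either LNG time. As none passed without the covariate either, that outcome cannot show the part of the squamous mean in these values, which was not tested.

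Leaving out BB4870 gave 4 called member probe sets at the 5th time, where 3186 of all 31624 then passed by limma. Leaving out the (A-) arrays, of which BB4870 has the only 1 at that time, also gave 4, where 2937 of all passed. In both fits the 4 were the 3 CLEC7A probe sets, lower, and CD68 (MmugDNA.11447.1.S1_at), higher. Without BB4870, CLEC7A changed by -1.43 (MmugDNA.23209.1.S1_at), -1.30 (MmugDNA.3760.1.S1_at) and -1.19 (MmugDNA.40302.1.S1_s_at), and CD68 by 1.91. BB4870 had the highest CLEC7A value at the 5th time by MmugDNA.23209.1.S1_at, 8.67. Among the members that gained no call, APOE in that animal stood at 8.66 and C1QA at 7.01 at the 5th time, the lowest of the 6, and TYROBP at 9.62, also the lowest.

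Direct comparisons between treated groups gave 0 calls among the members, and 0% of all probe sets passed in each. They set 2D2 against 1D4, the 7th against the 5th time, the DMPA change against the LNG change, the labelled DMPA dose as a slope at 2D2, and the change in High against Low animals. Doses, routes and schedules differed between the arms. The DMPA change minus the LNG change was 0.31 ± 0.38 (SE) for TYROBP, -0.04 ± 0.40 for C1QB, 0.02 ± 0.38 for CLEC7A (MmugDNA.23209.1.S1_at) and -0.66 ± 0.47 for CD68 (MmugDNA.11447.1.S1_at). For CLEC10A it was -0.21 ± 0.09, with an unadjusted p of 0.022 and an adjusted p of 0.769 by limma. So the calls in the DMPA arm and their absence in the LNG arm were not shown to be a difference between the arms.

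By labelled DMPA dose, TYROBP at 2D2 was 11.57, 11.46 and 10.05 at 0.5, 11.60, 11.13 and 10.98 at 1.5, and 12.08, 11.998 and 11.37 at 2.5, with overlap between the doses. Its slope was 0.60 ± 0.32 (SE) per dose unit, that of C1QB 0.67 ± 0.34 and that of C1QA (MmuSTS.1957.1.S1_at) 0.76 ± 0.39. The members' lowest adjusted p was 0.934 by limma. The change in CLEC7A (MmugDNA.23209.1.S1_at) was higher in High than in Low animals by 1.39 ± 0.51, with an unadjusted p of 0.0095 and an adjusted p of 0.489. Its mean over both treated times was 7.93 in the High and 6.75 in the Low animals.

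In the untreated cycle, APOE was the member that changed. By MmugDNA.31898.1.S1_s_at it was 8.07 through 9.85 to 12.19 in the 15 follicular samples and 9.87 through 11.78 to 12.94 in the 13 luteal samples. The groups overlapped, but all 12 animals sampled in follicular and luteal phases were higher in the luteal ones. APOE rose by 1.60 ± 0.34 (SE), 3.03-fold, with an adjusted p of 0.0282 by limma, the only call among 14 where 1.71% of all probe sets passed. The other APOE probe sets were each higher in 11 of 12 animals, by 0.78 ± 0.22 and 0.74 ± 0.21, with adjusted p of 0.0547 and 0.054. In the 5 late follicular samples APOE stood at 9.36, 9.81, 9.85, 10.002 and 10.03, and in the 4 early luteal samples at 10.62, 10.83, 11.28 and 11.78. These values, by MmugDNA.31898.1.S1_s_at, did not overlap between the phases. Only BB4800 was sampled in both of these phases, so the separation lies mostly between different animals. By the other APOE probe sets the phases overlapped. Their late follicular values reached 9.38 and 8.58, and their early luteal values began at 9.23 and 8.44. At that step 0% of all probe sets passed by limma, and how many of them had no overlap was not counted. The call ended without BB173 (adjusted p 0.0976), BB4800 (0.103), BB537 (0.0537), BB967 (0.0582), BB981 (0.0574) or PPi2 (0.0523). It also ended without the animal as a block (0.0666) and with the GAPDH difference as a covariate (0.0771).

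C1QA (MmuSTS.1957.1.S1_at) went from 5.89 through 7.38 to 9.95 in follicular to 6.95 through 9.0 to 9.89 in luteal samples, higher in 11 of 12 animals. Its difference was 1.13 ± 0.32 (SE), with an adjusted p of 0.0546 by limma. C1QB was higher by 0.88 ± 0.28, in 10 of 12 animals, and TYROBP by 0.68 ± 0.28, in 9 of 12, with adjusted p of 0.0788 and 0.157. CLEC10A was lower in 11 of 12 animals, by a difference of -0.15 ± 0.06 that did not pass, and CLEC7A (MmugDNA.23209.1.S1_at) differed by -0.21 ± 0.28. The 11 measured genes of macrophage identity had a median luteal difference of 0.99, where that over all probe sets was -0.01, and 0 of them passed by limma. The stromal mean was 9.62 ± 1.09 (SD, n = 9) in late luteal and 8.05 ± 0.60 (n = 5) in late follicular samples. In early luteal samples it was 7.12, 7.68, 8.70 and 8.99, and in early follicular samples it ranged from 6.98 to 9.51. With this mean as a covariate in the limma fit, APOE (MmugDNA.31898.1.S1_s_at) still passed and no other member did. Its part in the result was not tested beyond that fit.

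**Figure D4:**
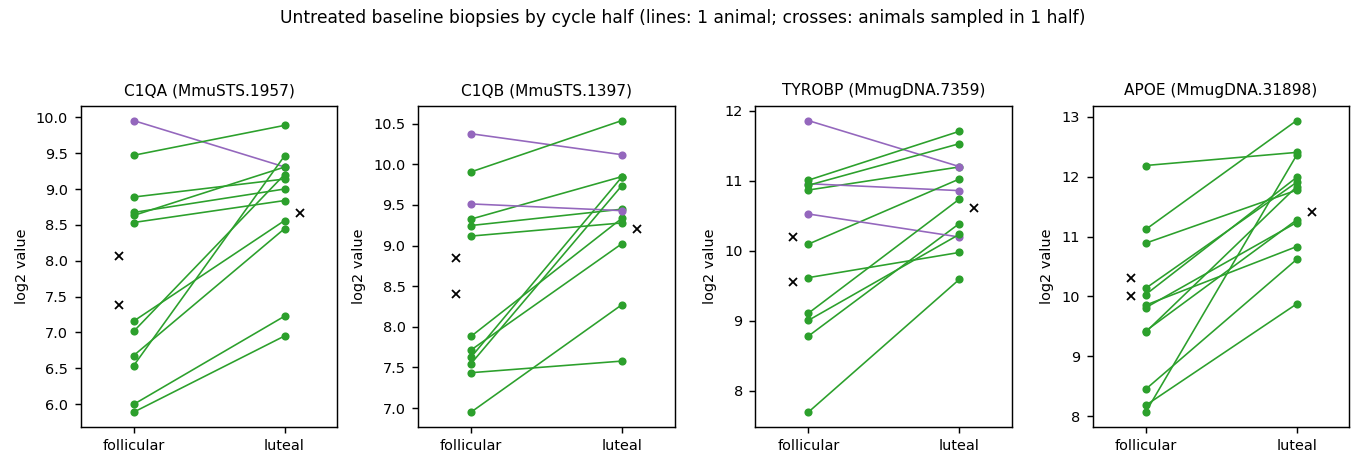
Log2 value (y axes) of C1QA, C1QB, TYROBP and APOE in untreated biopsies in the follicular and the luteal phases of the cycle (x axes). Each line joins 1 animal's values, green where higher in the luteal phases and purple where lower, and crosses are animals sampled in only 1 of the 2. All 12 lines rise for APOE, 11 for C1QA, 10 for C1QB and 9 for TYROBP.

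Steps between neighbouring phases gave 0 member calls, and 0% of all probe sets passed in each. At an unadjusted p under 0.05 by limma, 0, 2 and 3 members passed from early to late follicular, from late follicular to early luteal and from early to late luteal. Of all 31624 probe sets, 1315, 1753 and 3548 did so. C1QA (MmuSTS.1957.1.S1_at) was 6.54, 6.93, 7.02, 7.38 and 8.89 in late follicular and 7.23, 8.84, 9.14 and 9.31 in early luteal samples. The fitted difference was 1.44 ± 0.57 (SE). Only BB4800 was sampled in both late follicular and early luteal phases, so that estimate rests largely on the animal blocks. For CLEC7A (MmugDNA.23209.1.S1_at) the fitted difference of late minus early luteal was -1.08 ± 0.46 (SE). No animal was sampled in both of these phases, so the estimate rests on the animal blocks through other biopsies. The samples themselves overlapped, with a mean of 7.915 (6.945 to 9.102) in late luteal and 8.087 (7.829 to 8.678) in early luteal.

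Ordered by mean over the 8 groups, TYROBP, C1QB, APOE (MmugDNA.31898.1.S1_s_at) and C1QA (MmuSTS.1957.1.S1_at) were lowest in late follicular samples. They were highest at DMPA 2D2 (TYROBP and APOE) or at DMPA 1D4 (C1QA and C1QB), by 1.64 for TYROBP, 2.23 for APOE, 1.84 for C1QA and 1.67 for C1QB. Of the other probe sets of these genes, 1 of APOE had the same ends. APOE MmugDNA.17966.1.S1_x_at was lowest in early follicular and highest in late luteal samples, and C1QA MmugDNA.2736.1.S1_at was lowest at the LNG 7th time and highest in early follicular samples. All 3 CLEC7A probe sets were highest in late follicular samples. MmugDNA.23209.1.S1_at was lowest at DMPA 2D2, 1.74 below, and MmugDNA.3760.1.S1_at and MmugDNA.40302.1.S1_s_at at DMPA 1D4, 1.51 and 1.46 below. CLEC10A spanned 0.36, from DMPA 1D4 to early follicular, and CD14 spanned 0.55, from the LNG 5th time to late luteal. Of 98 gaps between neighbouring means in these orders, over all 14 probe sets, 4 exceeded 1 SD, by the larger SD of both groups. Neighbours in a sorted order lie close by construction, and the SD ignores the pairing by animal. The gaps therefore describe the orders and do not test whether groups differ.

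Across the 57 samples, which share animals and include repeated biopsies, C1QA (MmuSTS.1957.1.S1_at) and C1QB went together with a Pearson r of 0.980. C1QB went with TYROBP at 0.912, with APOE (MmugDNA.31898.1.S1_s_at) at 0.851 and with CD14 at 0.615. Against CLEC7A (MmugDNA.23209.1.S1_at) the r of C1QB was -0.334, and against CLEC10A it was -0.286. These are descriptions over samples that differ in treatment. Among the 11199 genes over the filter, those most like C1QB were C1QA, LOC715814 and C1QC, with r of 0.961 for LOC715814 and 0.956 for C1QC. TYROBP was most like LOC715814 at 0.941, C1QB at 0.912 and AIF1 at 0.905. APOE was most like TMSB4X at 0.891, LOC718777 at 0.882 and TMEM176B at 0.881. CD14 was most like IL10RA at 0.739, TLR4 at 0.727 and BIN2 at 0.711. CLEC7A was most like SH3GL1 at 0.814, RBM28 at 0.805 and ABTB2 at 0.801, and CLEC10A had no gene above 0.671 (NKX2-1). CD68 (MmuSTS.3489.1.S1_at) was most like AOC1 at 0.707, BLZF1 at 0.668 and BLNK at 0.653.

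Probe sets that carry the same symbol did not always read alike. The CLEC7A probe sets went together with r from 0.927 to 0.95 and the APOE ones from 0.906 to 0.973, over 57 samples. For C1QA the r between MmuSTS.1957.1.S1_at and MmugDNA.2736.1.S1_at was -0.355, and -0.282 in the 28 baseline samples alone. The second of these had an r of -0.408 with C1QB, and the genes most like it were LOC703571 at 0.809 and REEP4 at 0.804. Its change was -0.29 ± 0.18 (SE) at DMPA 1D4 and -0.37 ± 0.17 at 2D2, opposite in sign to the first. The CD68 pair had an r of -0.359, and 0.057 in baseline samples alone, and MmugDNA.11447.1.S1_at was most like DACT1 at 0.842 and NECTIN3 at 0.834. The direction for C1QA and CD68 therefore depends on the probe set, and which of them reads the named transcript was not tested.

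**Figure D5:**
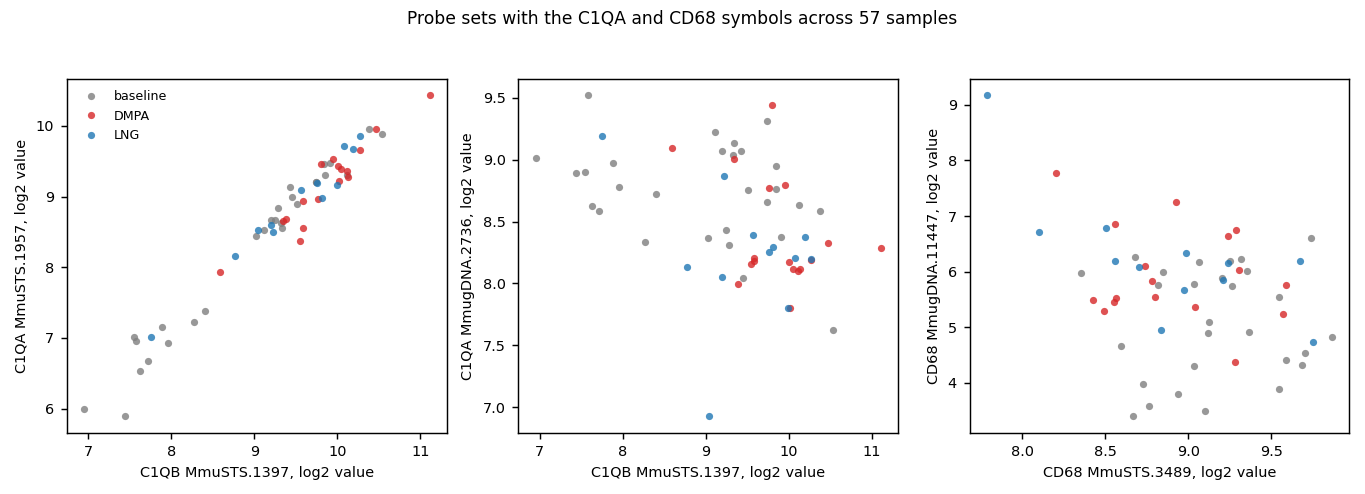
Log2 values of pairs of probe sets in 57 samples, grey for baseline, red for DMPA and blue for LNG. In the left panel C1QA MmuSTS.1957 follows C1QB (r 0.980). In the middle panel the other C1QA probe set runs weakly the opposite way (r -0.408), and in the right panel the CD68 pair does so too (r -0.359).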

How the data were processed

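Vaginal biopsies of 15 pig-tailed macaques were read on 58 Affymetrix rhesus arrays, 1 per sample apart from 1 sample with a labelled duplicate array. The values are the authors' deposited log2 values of 52865 probe sets. The submitters' processing notes name affy and Partek, and no label or header states the background correction or the normalisation. Gene symbols came from the array annotation, which gives 1 symbol for 24969 probe sets, several for 361 and none for 27535. The members and the gene lists were chosen with earlier results of these data known.

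Control probe sets (158) were left out, as were probe sets whose mean fell under the 40th percentile (log2 5.53), leaving 31624. Both arrays of the labelled duplicate were averaged, giving 57 samples. Fits used limma 3.58.1 in R 4.3.3 (statmod 1.5.0 for the random block), with animal as a fixed block, all groups in 1 fit and Benjamini-Hochberg adjustment over all kept probe sets. The script was tested on simulated data. The animal labels pair the samples. All probe sets of each member were named, and at most 6 passing genes per comparison from the wider list, smallest p first. For likeness, the 3 named genes with the highest r were taken. A marker mean uses the brightest kept probe set of each gene. Alternatives were other filters, the brightest probe set per gene, centring on array medians, a random or no block, phases kept apart, array weights, 3 covariates, and samples left out. Estimation of the array weights gave a convergence warning, so the counts with array weights are less certain than the others.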

Additional observations from a re-analysis of the deposited data

Results flagged for a closer look

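Of 112 sets of values of a member in 1 group of 4 to 10 samples, 10 had a highest or lowest sample far from the others. Chance gives about 1 in 20 for independent sets. These sets are not independent, since probe sets of 1 gene read the same samples, so an excess over chance was not shown. BB770 gives several of the 10. At DMPA 1D4 its CLEC7A values were 9.75, 9.35 and 8.40 by the 3 probe sets, where the next samples stood at 7.58, 7.37 and 6.31. In the late follicular phase its CLEC7A value by MmugDNA.23209.1.S1_at was 9.95, with the next sample at 8.73. At DMPA 2D2 its APOE value by MmugDNA.31898.1.S1_s_at was 10.39, with the next at 11.56.

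BB4870 was lowest for C1QA (MmuSTS.1957.1.S1_at) among the late luteal samples, at 6.95 with the next at 8.45, and for APOE (MmugDNA.31898.1.S1_s_at) at the LNG 5th time, at 8.66 with the next at 10.79. In the early luteal samples BB981 was highest for CLEC7A (MmugDNA.23209.1.S1_at), at 8.68 with the next at 7.93. In the same phase BB405 was highest for CLEC10A, at 7.13 with the next at 6.67. BB269 was highest for CLEC10A in late luteal samples, at 6.74 with the next at 6.59.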

How the results depend on the processing

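All 12 called member values kept their direction in every setting run, and 320 of 369 counts of called members stayed within 1.5 times of the reported count. For 8 comparisons 0 members were called in every setting, and their counts of 0 are among the 320. All 49 counts that did not stay within 1.5 times came from the other comparisons, so the share of 320 in 369 overstates how stable the calls were. At DMPA 1D4 (6 reported) the count was 12 with array weights and 0 with the GAPDH, stromal or squamous covariate. It ranged from 1 to 10 when 1 animal or sample was left out, with 1 without PHQ1, 3 without BB0499 or BB981 and 10 without PPi2. At DMPA 2D2 (5 reported) it was 3 with the 60th percentile filter or the brightest probe set alone, 9 with animal as a random block, 9 with no replicate block, 8 with phases apart or array weights, and 0 with the GAPDH or squamous covariate. Leaving out 1 animal or sample gave 3 (without BB981) to 9 (without late luteal replicate 4, from PPi2), and 8 without BB770 or PPi2. At the LNG 5th time (0 reported) it was 1 with a random block or array weights, 2 with phases apart and 4 without the (A-) arrays, and 0 to 4 with 1 left out (4 without BB4870). At the LNG 7th time (0 reported) it was 1 with phases apart, 3 with array weights and 0 to 2 with 1 left out (2 without BB269). For luteal minus follicular (1 reported) it was 4 with the 60th percentile filter, a random block or the squamous covariate. It was 2 with the brightest probe set or without the duplicate, 3 with baseline samples alone, 5 with array weights, 0 with the GAPDH covariate or no replicate block, and 0 to 5 with 1 left out (5 without BB4870, 4 without BB108, 3 without BB770). The cause was not tested. The dim CD68 and CLEC7A probe sets, MmugDNA.11447.1.S1_at and MmugDNA.40302.1.S1_s_at, were under the filter value in 24 and 11 of 57 samples. The duplicate array and its partner differed by 0.03 (CD14) to 0.80 (CLEC7A, MmugDNA.23209.1.S1_at) over the members.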
